A study of Danio rerio with 6 samples.

Results

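The 43 genes described here carry cells through G2 and mitosis, and they were measured in RNA of kidney marrow, the tissue where blood forms in adult zebrafish. They were taken from a list of 46 gene names, by matching each name to the symbol of an Ensembl gene regardless of letter case, or to the human-style symbol without the a or b of a zebrafish gene copy. Of the 46 names, 43 matched, and prc1a and prc1b share 2 genes that are both named PRC1. That gave 43 of the 32057 genes in the table, 40 of them through an exact symbol. The names cenpa, kif4 and incenp matched no row under this rule. Rows for CCNB1 and the other capitalised symbols are zebrafish genes.

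The heterozygous group held 3 RNA libraries from fish with 1 mutated copy of rad21a in the germ line, and the wild-type group held 3 libraries from their siblings. The allele, nz171, puts a stop codon for a glycine in exon 8. Every library pooled the marrow of 3 adult fish, and the labels give no other treatment. The sources used here give neither sex nor exact age, nor whether pools shared a clutch. Rad21 closes the ring of cohesin, which holds sister chromatids together until anaphase. Nothing says whether the pools stand for separate crosses, so p-values measure the spread between these pools. Values are TPM, a transcript level per unit of length scaled to a fixed total in each library, so the depth behind each value is unknown.

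As background, the genes of G2 and mitosis are switched on late in the cell cycle, largely by a programme of B-MYB, LIN54 and FOXM1, and their products are broken down as the cell leaves mitosis. In kidney marrow the dividing cells are mostly precursors of red cells, granulocytes and lymphocytes. Growing oocytes also store mRNA of cyclins and mitotic kinases for the meiotic divisions and the first cleavages of the embryo. In RNA of whole tissue, fewer cells of a type and less RNA per cell cannot be told apart.

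Egg transcripts were present in very unequal amounts. The coat protein gene zp2.1 stood at 39.0, 42.2 and 0.433 TPM in heterozygous pools and at 82.9, 4874 and 1447 TPM in wild-type pools. The gene buc, which organises the Balbiani body of the oocyte, stood at 3.88, 2.85 and 0.219 TPM in heterozygous pools and at 5.28, 285.4 and 105.2 TPM in wild-type pools. Wild-type pools 2 and 3 were thus the libraries rich in egg RNA, and wild-type pool 1 was closer to heterozygous pools 1 and 2. Of 27 listed egg genes 24 had a row, and their summed TPM ran from 9.56 to 211.9 in heterozygous pools and from 269.3 to 16713 in wild-type pools. In heterozygous pool 3, 4 of the 24 were listed at 0. The granulocyte gene lyz stood at 41724, 15473 and 15911 TPM in heterozygous pools and at 13257, 18996 and 20008 TPM in wild-type pools. The mutated gene rad21a stood at 67.4, 61.6 and 61.98 TPM in heterozygous pools and at 110.1, 73.9 and 108.2 TPM in wild-type pools, without overlap (log2 fold change -0.58, limma adjusted p = 0.30).

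The members were lower in heterozygous pools almost throughout, but none passed the test. Of the 43 members 40 had a negative log2 fold change, against 51.9% of the 16537 genes tested, and the median member stood at -0.81, against -0.022 for all tested genes. The highest heterozygous pool lay below the lowest wild-type pool for 31 of the 43 members, and this held for 9.79% of tested genes. The reverse order held for 0 members, against 11.9% of tested genes. limma called 0 of the 43 at an adjusted p under 0.05, where 1.37% of all tested genes were called (0.562% lower and 0.81% higher), and the smallest adjusted p of a member was 0.16. At an unadjusted limma p under 0.05, 25 members were lower and 0 higher, against 7.88% and 7.12% of tested genes. Fold changes are of log2(TPM + 1), heterozygous minus wild type, and understate the change of low genes.

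Single libraries moved these figures. Without heterozygous pool 1 or heterozygous pool 3 the number lower at an unadjusted limma p under 0.05 was 8 and 9, against 5.5% and 4.46% of tested genes. Without wild-type pool 1 it was 30, against 20.1% of tested genes. Without wild-type pool 2 the median was -0.51, with 41 of 43 members negative, against 51.1% of tested genes. Without wild-type pool 1, limma called 9 members lower, against 5.36% of all tested genes; they were CCNB2, aurka, KIF23, CDC20, AURKB, CCNB1, plk1, cdca8 and ECT2. Over all tested genes 134 were called higher and 93 lower, a split that was 206 and 75 under quantile normalization, where the median gene moved to 0.11 and the median member to -0.64.

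**Figure D1:**
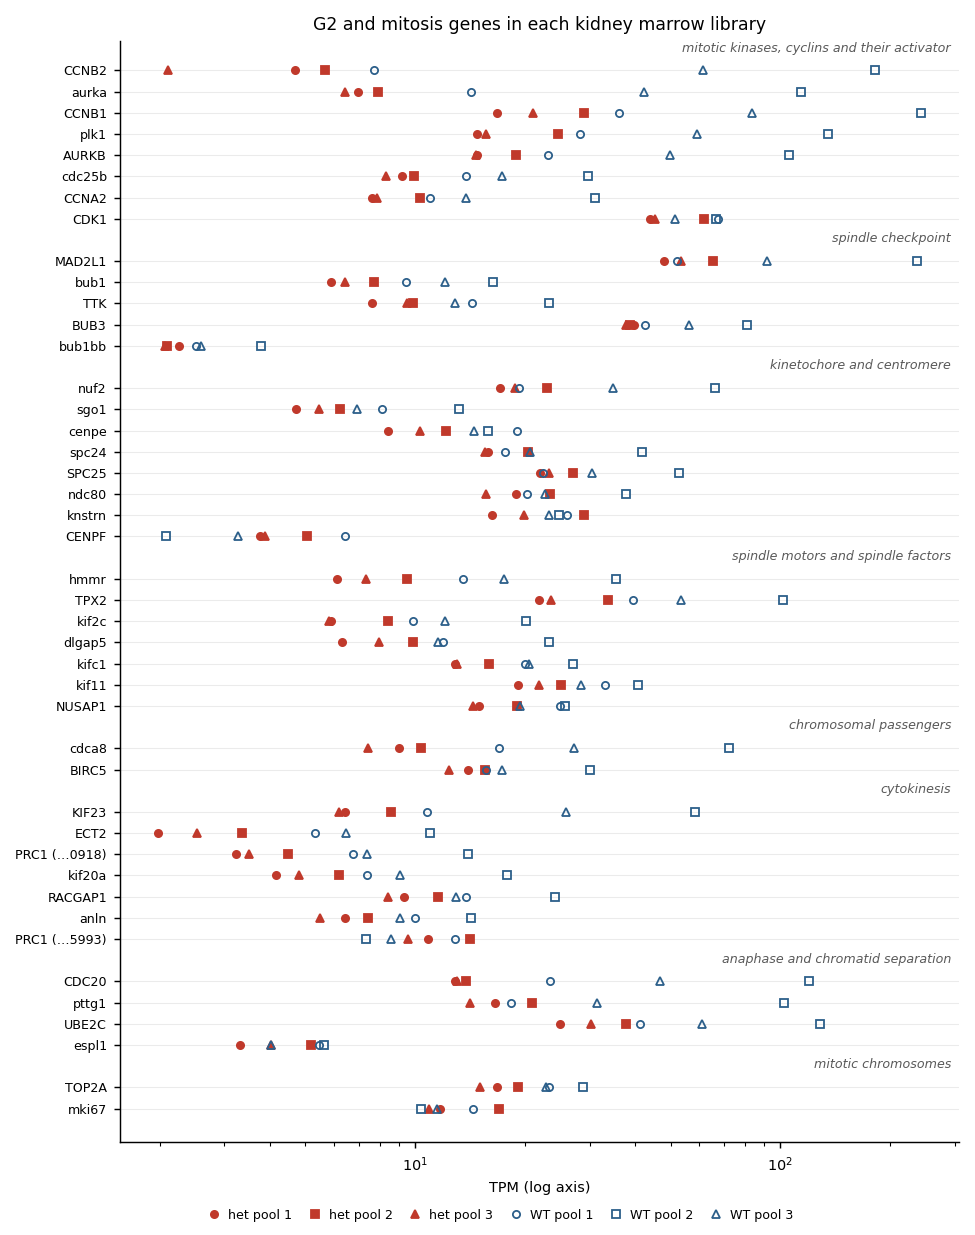
TPM of each of the 43 genes in each library, on a log axis, with heterozygous (het) pools as filled red symbols and wild-type (WT) pools as open blue symbols, grouped by role. In 31 rows every red symbol lies left of every blue one, an order seen for 9.79% of all tested genes. WT pool 2 is the highest library in 37 rows, against 35.1% of tested genes.

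Over all libraries, kinases and cyclins that start mitosis had the most negative median of the 8 roles. Entry into mitosis is driven by CDK1 bound to a B cyclin, which the phosphatase Cdc25 activates and the Plk1 and Aurora kinases reinforce. All 8 members of this group had a negative fold change, with a median of -1.65. For 7 of the 8 every heterozygous pool lay below every wild-type pool, against 9.79% of tested genes. Their summed TPM was 118.6, 167.8 and 121.3 in heterozygous pools and 201.5, 905.5 and 379.05 in wild-type pools. Against wild-type pool 1 alone the median of this group was -0.59. Medians of the spindle motors and factors, the cytokinesis genes and the chromosomal passengers were then close to it, at -0.57, -0.56 and -0.51.

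The gene aurka, for the kinase that matures centrosomes, stood at 6.97, 7.92 and 6.43 TPM in heterozygous pools and at 14.2, 114 and 42.3 TPM in wild-type pools. The 3 heterozygous values were close together and below every wild-type value, whereas the wild-type values were spread over 8.04-fold. Its log2 fold change was -2.39 ± 0.67 (SE, n = 3 each, limma adjusted p = 0.20). CCNB1, cyclin B1, stood at 16.7, 28.9 and 20.98 TPM in heterozygous pools and at 36.0, 242.98 and 83.7 TPM in wild-type pools. It had no overlap either, with wild-type pool 2 far above the rest (log2 fold change -2.01 ± 0.65, limma adjusted p = 0.24). cdc25b, the activating phosphatase, stood at 9.18, 9.91 and 8.29 TPM in heterozygous pools and at 13.7, 29.8 and 17.3 TPM in wild-type pools. Its genotypes were also apart, by a smaller margin (log2 fold change -1.002 ± 0.31, limma adjusted p = 0.22).

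CCNB2 and CDK1 mark the ends of this group, and both are described because of their values. CCNB2, cyclin B2, stood at 4.67, 5.64 and 2.103 TPM in heterozygous pools and at 7.69, 181.0 and 61.4 TPM in wild-type pools. It had the most negative fold change of the 43 (log2 fold change -3.24 ± 1.04, limma adjusted p = 0.24), and its level in wild-type pool 2 was 23.5 times that in wild-type pool 1. CDK1, the kinase that both cyclins bind, stood at 43.96, 61.7 and 45.3 TPM in heterozygous pools and at 67.4, 66.7 and 51.3 TPM in wild-type pools. Here the genotypes overlapped and wild-type pool 2 was no higher than pool 1 (log2 fold change -0.30, 95% interval -0.85 to 0.25, limma adjusted p = 0.56). So CDK1 was more even across wild-type pools than its B cyclins. AURKB, plk1 and CCNA2 had log2 fold changes of -1.58, -1.72 and -0.91, each without overlap.

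Spindle checkpoint genes, whose products delay anaphase until every kinetochore is attached, were all 5 negative, with a median of -0.80. Against wild-type pool 1 alone their median was -0.16. bub1, a checkpoint kinase, stood at 5.86, 7.68 and 6.42 TPM in heterozygous pools and at 9.45, 16.4 and 12.0 TPM in wild-type pools. TTK, the kinase MPS1 that recruits the checkpoint to kinetochores, stood at 7.62, 9.87 and 9.47 TPM in heterozygous pools and at 14.3, 23.3 and 12.9 TPM in wild-type pools. Both were apart between genotypes, with log2 fold changes of -0.81 and -0.80 (limma adjusted p = 0.24 and 0.26). MAD2L1, which holds back Cdc20, was the member of highest mean level and stood at 47.96, 65.4 and 53.5 TPM in heterozygous pools and at 52.1, 236.4 and 91.8 TPM in wild-type pools. Its genotypes overlapped, since wild-type pool 1 lay below heterozygous pools 2 and 3 (log2 fold change -0.91, limma adjusted p = 0.45). BUB3 and bub1bb, for the other checkpoint proteins, were at -0.57 and -0.32 without overlap.

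Of 8 kinetochore and centromere genes 7 were negative, with a median of -0.48. For 2 of the 8 every heterozygous pool lay below every wild-type pool, against 9.79% of tested genes. cenpe, a motor that carries chromosomes to the spindle equator, stood at 8.44, 12.1 and 10.3 TPM in heterozygous pools and at 19.02, 15.8 and 14.4 TPM in wild-type pools. It was apart between genotypes, and unlike most members it was highest in wild-type pool 1 (log2 fold change -0.63, limma adjusted p = 0.27). sgo1, shugoshin, which shields centromeric cohesin in early mitosis, stood at 4.71, 6.23 and 5.46 TPM in heterozygous pools and at 8.11, 13.1 and 6.93 TPM in wild-type pools. Its genotypes did not overlap (log2 fold change -0.65, limma adjusted p = 0.34).

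The NDC80 complex, which grips microtubules, is encoded by ndc80, nuf2, spc24 and SPC25, and for these 4 genes the genotypes overlapped. nuf2 stood at 17.1, 22.99 and 18.8 TPM in heterozygous pools and at 19.2, 66.3 and 34.8 TPM in wild-type pools. Wild-type pool 1 lay among the heterozygous values and pools 2 and 3 above them (log2 fold change -0.84, limma adjusted p = 0.41). The other 3 subunits were at log2 fold changes from -0.51 to -0.42, and knstrn, for the kinetochore protein kinastrin, at -0.22. CENPF, a large kinetochore protein made in G2, stood at 3.75, 5.06 and 3.88 TPM in heterozygous pools and at 6.42, 2.07 and 3.27 TPM in wild-type pools. It went against the median of the members, with the egg-rich wild-type pools the lowest 2 libraries (log2 fold change 0.18, limma adjusted p = 0.82), and without wild-type pool 2 its value was -0.11.

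All 7 genes for spindle motors and spindle factors were lower in every heterozygous pool than in any wild-type pool, against 9.79% of tested genes. Their median was -0.82. hmmr, which helps to focus spindle poles, stood at 6.08, 9.49 and 7.32 TPM in heterozygous pools and at 13.5, 35.4 and 17.5 TPM in wild-type pools. TPX2, which activates Aurora A on microtubules, stood at 21.8, 33.7 and 23.5 TPM in heterozygous pools and at 39.4, 101.4 and 53.5 TPM in wild-type pools. The log2 fold changes were -1.33 ± 0.38 for hmmr and -1.18 ± 0.38 for TPX2 (SE, n = 3 each, limma adjusted p = 0.20 and 0.24). kif2c, a motor that takes microtubules apart, stood at 5.86, 8.41 and 5.81 TPM in heterozygous pools and at 9.84, 20.1 and 12.1 TPM in wild-type pools (log2 fold change -0.92, limma adjusted p = 0.25). The motors kif11 and kifc1 and the spindle proteins dlgap5 and NUSAP1 had log2 fold changes between -0.82 and -0.51. A gene named KIF4A, outside the matching rule and described after its values were seen, stood at 7.77, 9.06 and 6.80 TPM in heterozygous pools and at 11.6, 23.4 and 15.8 TPM in wild-type pools.

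Cytokinesis genes included ECT2, the member with the smallest p. Ect2, Racgap1 and Kif23 set the cleavage plane and switch on RhoA there, anillin links the contractile ring to the membrane, and Prc1 bundles the midzone. Of the 7 genes, 6 were lower in every heterozygous pool than in any wild-type pool, against 9.79% of tested genes. ECT2 stood at 1.97, 3.36 and 2.53 TPM in heterozygous pools and at 5.32, 10.97 and 6.46 TPM in wild-type pools, a log2 fold change of -1.21 ± 0.30 (SE, n = 3 each, limma adjusted p = 0.16). KIF23 stood at 6.42, 8.55 and 6.18 TPM in heterozygous pools and at 10.8, 58.4 and 25.8 TPM in wild-type pools (log2 fold change -1.74, limma adjusted p = 0.24). Both genes had the order in which wild-type pool 2 was highest, then pool 3, then pool 1, then the heterozygous pools.

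The 2 genes named PRC1 went different ways. PRC1 (ENSDARG00000100918) stood at 3.22, 4.48 and 3.498 TPM in heterozygous pools and at 6.75, 13.9 and 7.38 TPM in wild-type pools, with no overlap (log2 fold change -1.07 ± 0.30, limma adjusted p = 0.20). PRC1 (ENSDARG00000005993) stood at 10.8, 14.1 and 9.54 TPM in heterozygous pools and at 12.8, 7.34 and 8.60 TPM in wild-type pools, and its genotypes overlapped (log2 fold change 0.25, limma adjusted p = 0.67). The second copy was lowest in wild-type pools rich in egg RNA, where the first was highest. Reads shared between the copies are uncertain, as the sources used here do not give the handling of reads that map to several places. anln, kif20a and RACGAP1 had log2 fold changes of -0.69, -0.96 and -0.70.

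Chromosomal passengers ride from centromeres to the midzone with Aurora B. cdca8, borealin, stood at 9.00, 10.4 and 7.41 TPM in heterozygous pools and at 16.97, 72.1 and 27.2 TPM in wild-type pools (log2 fold change -1.76 ± 0.50, limma adjusted p = 0.20). BIRC5, survivin, which holds the complex at centromeres, stood at 13.9, 15.6 and 12.4 TPM in heterozygous pools and at 15.7, 30.1 and 17.3 TPM in wild-type pools. The 2 partners were both without overlap, but for BIRC5 the gap between heterozygous pool 2 and wild-type pool 1 was small (log2 fold change -0.51, limma adjusted p = 0.45).

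Anaphase begins when Cdc20 directs the anaphase-promoting complex, with its ubiquitin donor Ube2c, against securin, which frees separase to cut Rad21. CDC20 stood at 12.8, 13.8 and 12.99 TPM in heterozygous pools and at 23.4, 119.4 and 46.8 TPM in wild-type pools. UBE2C stood at 24.9, 37.7 and 30.3 TPM in heterozygous pools and at 41.3, 128.7 and 60.8 TPM in wild-type pools. Both were apart between genotypes, with log2 fold changes of -1.87 ± 0.54 and -1.15 ± 0.42 (SE, n = 3 each, limma adjusted p = 0.21 and 0.29). pttg1, securin, stood at 16.5, 20.8 and 14.2 TPM in heterozygous pools and at 18.3, 102.5 and 31.4 TPM in wild-type pools, with overlap between heterozygous pool 2 and wild-type pool 1 (log2 fold change -1.16, limma adjusted p = 0.41). espl1, separase, the enzyme that cuts Rad21, was added after its values were seen and stood at 3.32, 5.17 and 4.02 TPM in heterozygous pools and at 5.44, 5.61 and 4.03 TPM in wild-type pools. Its genotypes overlapped (log2 fold change -0.23, 95% interval -0.78 to 0.33, limma adjusted p = 0.66).

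Genes for proteins of the mitotic chromosome, 2 in number, had the median closest to 0 of the 8 roles over all libraries, at -0.21. Against wild-type pool 1 alone their median was -0.29. The spindle checkpoint and the kinetochore and centromere genes were then less negative, at -0.16 and -0.19. TOP2A, the topoisomerase that untangles sister chromatids, stood at 16.7, 19.2 and 15.05 TPM in heterozygous pools and at 23.3, 28.7 and 22.8 TPM in wild-type pools, with no overlap (log2 fold change -0.53, limma adjusted p = 0.31). mki67, the proliferation marker Ki-67, stood at 11.7, 16.9 and 10.9 TPM in heterozygous pools and at 14.4, 10.4 and 11.5 TPM in wild-type pools. The Ki-67 values were mixed between genotypes (log2 fold change 0.10, 95% interval -0.49 to 0.70, limma adjusted p = 0.86), and without heterozygous pool 2 the value was -0.078.

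Most members were highest in the wild-type pool richest in egg RNA, by different margins. Wild-type pool 2 was the highest of the 6 libraries for 37 of 43 members, against 35.1% of tested genes, and its level was at least 2 times that of wild-type pool 1 for 22 members, against 24.3% of tested genes. Wild-type pools 2 and 3 were both above pool 1 for 28 members, against 54.5% of tested genes. The summed TPM of all members was 567.1, 754.2 and 584.5 in heterozygous pools and 839.7, 2439 and 1175 in wild-type pools. In heterozygous pools the egg list summed to 211.9, 145.5 and 9.56 TPM, a different order from that of the members. The ratio of wild-type pool 2 to pool 1 ran from 0.323 for CENPF to 23.5 for CCNB2. It was under 1 for CDK1, cenpe, knstrn, mki67, CENPF and PRC1 (ENSDARG00000005993). The order of wild-type pools 2 and 3 above pool 1, and pool 1 above all heterozygous pools, was seen for 22 members, against 6.62% of tested genes. The part of egg RNA in these values was not tested.

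**Figure D2:**
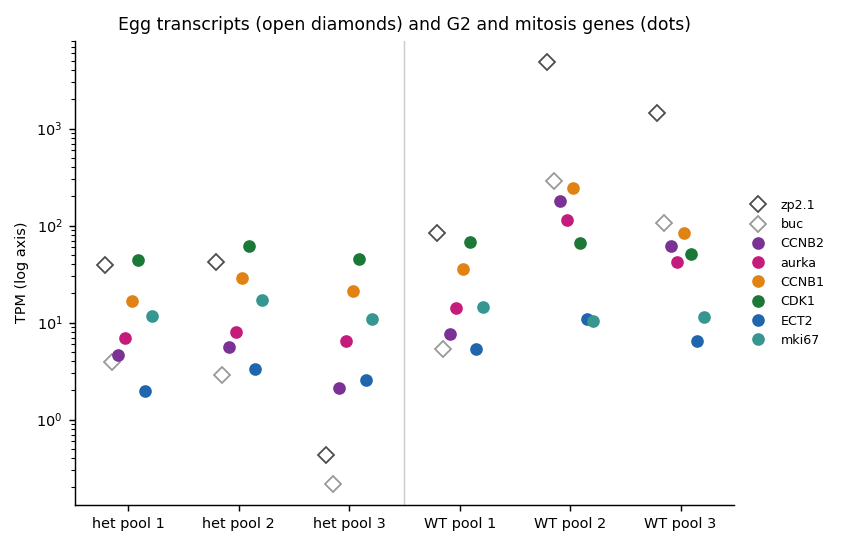
TPM on a log axis in each heterozygous (het) and wild-type (WT) pool for the egg genes zp2.1 and buc (open diamonds) and 6 members (dots), side by side within a library. CCNB2, aurka and CCNB1 are highest in WT pools 2 and 3, as zp2.1 and buc are, whereas CDK1 and mki67 are not.

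Relatives of members that serve eggs, and the egg genes MOS and WEE2, were picked for their contrast between libraries, after their values were seen. CCNA1, the germ-line and egg form of cyclin A in mouse and frog, stood at 4.71, 1.17 and 0.0508 TPM in heterozygous pools and at 6.28, 425.9 and 84.7 TPM in wild-type pools. CCNA2, the cyclin A of dividing body cells and a member, stood at 7.61, 10.3 and 7.85 TPM in heterozygous pools and at 10.97, 31.0 and 13.7 TPM in wild-type pools. birc5b, a second survivin gene needed from the mother in zebrafish eggs, stood at 7.35, 4.41 and 0 TPM in heterozygous pools and at 5.59, 487.1 and 93.9 TPM in wild-type pools. Wild-type pool 2 exceeded wild-type pool 1 by 87.2-fold for birc5b, against 1.93-fold for the member BIRC5. MOS, the kinase that holds eggs in meiosis, and WEE2, an oocyte inhibitor of CDK1, stood at 88.4 and 66.1 TPM in wild-type pool 2 and at 2.93 and 5.56 TPM in wild-type pool 1. In heterozygous pools MOS stood at 1.48, 0.762 and 0.531 TPM and WEE2 at 6.13, 4.08 and 4.23 TPM. So WEE2, unlike zp2.1, was not nearly absent from heterozygous pool 3.

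Against wild-type pool 1 alone, most members were lower as well. This comparison has a single wild-type library, whose spread was assumed to equal that of the heterozygous pools. Again 40 of 43 members had a negative log2 fold change, against 34.4% of tested genes, and the median was -0.50, against 0.15 for all tested genes. All heterozygous pools lay below wild-type pool 1 for 34 members, against 18.6% of tested genes. Red cell markers were also lower against this pool, with a median of -0.87 and 8 of 9 tested negative, all but EPOR. Over all libraries their median was 0.017. Globin genes held 22.2% of TPM in wild-type pool 1 and between 8.16% and 18.8% in heterozygous pools. limma called 0 members at an adjusted p under 0.05, against 0.32% of tested genes, and 6 members were lower at an unadjusted limma p under 0.05, against 4.57%. With heterozygous pool 3, nearly free of egg RNA, left out as well, the median was -0.46, against 0.14 for all tested genes, and 37 of 43 were negative, against 35.9% of tested genes. In that comparison 0 members were lower at an unadjusted limma p under 0.05, against 3.74% of tested genes, and limma called 0 genes of all. The summed egg list then stood at 211.9 and 145.5 TPM in heterozygous pools 1 and 2 and at 269.3 TPM in wild-type pool 1.

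**Figure D3:**
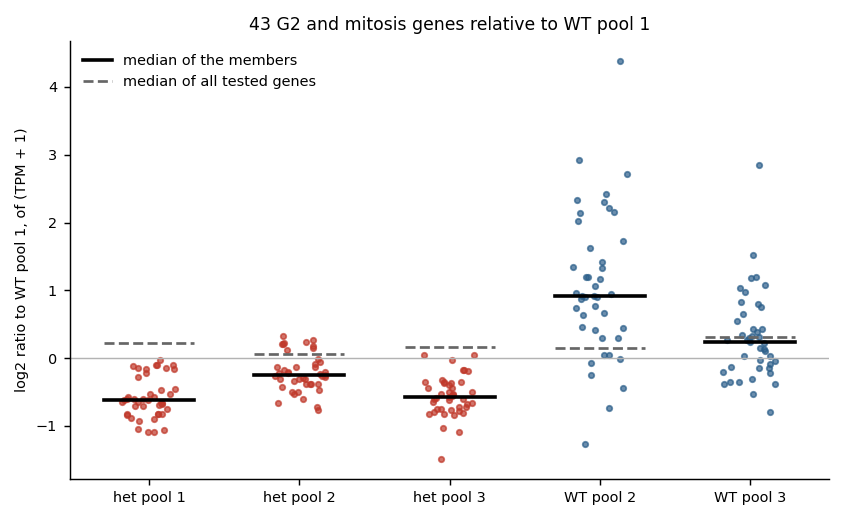
Log2 ratio of (TPM + 1) to WT pool 1 for the 43 members (dots) in the other 5 libraries, with the median of the members as a solid bar and that of all tested genes as a dashed bar. Member medians are -0.62, -0.25 and -0.58 in het pools 1 to 3, below the medians of all tested genes at 0.22, 0.057 and 0.17. They are 0.92 and 0.24 in WT pools 2 and 3, where the medians of all tested genes are 0.16 and 0.32.

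The 6 members at an unadjusted limma p under 0.05 against wild-type pool 1 were aurka, CDC20, cdca8, cenpe, PRC1 (ENSDARG00000100918) and ECT2. Their heterozygous means were 50.1%, 56.5%, 52.7%, 54.1%, 55.3% and 49.3% of wild-type pool 1. By contrast the heterozygous mean of MAD2L1 was 107%, that of SPC25 108% and that of nuf2 102% of wild-type pool 1. Those 3 genes, lower in the comparison of all 6 libraries, turned to log2 fold changes of 0.082, 0.095 and 0.015. CENPF, mki67 and PRC1 (ENSDARG00000005993) turned the other way, to -0.51, -0.14 and -0.16.

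**Figure D4:**
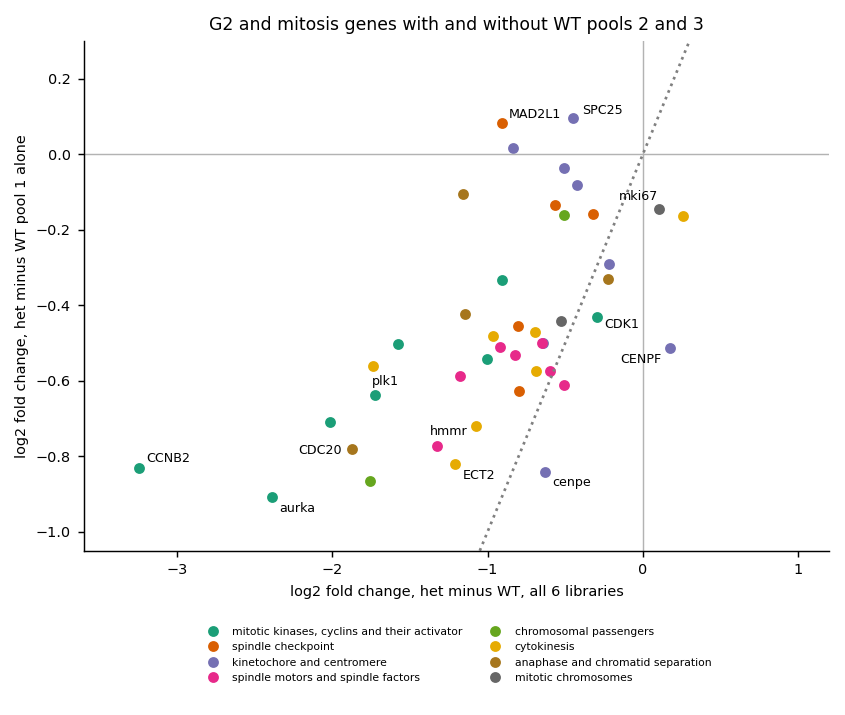
Log2 fold change of (TPM + 1) of each member in all 6 libraries (horizontal) and against WT pool 1 alone (vertical), colored by role, with equal values on the dotted line. CCNB2 and aurka lie far left of the line, at -3.24 and -2.39 on the horizontal axis and -0.83 and -0.91 on the vertical one, and MAD2L1 and SPC25 lie above 0 on the vertical axis.

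The heterozygous pools also differed among themselves. Heterozygous pool 2 was the highest of the 3 for 41 of 43 members, against 16.1% of tested genes, the exceptions being BUB3 and bub1bb. Its median log2 ratio to wild-type pool 1 was -0.25, against -0.62 and -0.58 in heterozygous pools 1 and 3. The summed TPM of red cell markers was 12339, 26698 and 20289 in heterozygous pools and 41915, 11605 and 20694 in wild-type pools, highest in heterozygous pool 2 and wild-type pool 1 within each genotype. Most of this sum was the globin gene hbaa1, at 38224 TPM in wild-type pool 1. Among wild-type pools the marker EPOR was instead highest in pool 3, at 28.8 TPM against 27.6 TPM in pool 1. EPOR was also higher in every heterozygous pool, at 31.9, 50.1 and 39.2 TPM, than in any wild-type pool. Granulocyte markers had sums of 49767, 18784 and 19157 TPM in heterozygous pools and of 15809.7, 21582.5 and 23489.5 TPM in wild-type pools. Most of the sum in heterozygous pool 1 was lyz, at 41724 TPM. The sums of B cell markers were 1219, 343.6 and 449.6 TPM in heterozygous pools and 82.3, 115.96 and 231.5 TPM in wild-type pools. All 8 markers were positive, and limma called 0 of them, against 1.37% of tested genes. At an unadjusted limma p under 0.05, 6 of the 8 were higher, against 7.12% of tested genes. For 6 of the 8 every heterozygous pool lay above every wild-type pool, against 11.9% of tested genes. For stem and progenitor markers the sums were 374.1, 239.4 and 244.8 TPM in heterozygous pools, each above the 207.6, 156.7 and 226.2 TPM of wild-type pools. Only 2 of the 9 tested had every heterozygous pool above every wild-type pool, against 11.9% of tested genes. MYB, 1 of those 2, stood at 82.9, 67.4 and 59.9 TPM in heterozygous pools and at 36.5, 34.0 and 44.7 TPM in wild-type pools. Skeletal muscle markers had sums of 8.78, 11.5 and 7.14 TPM in heterozygous pools and of 50.9, 45.2 and 45.8 TPM in wild-type pools, and interrenal markers had sums of 7.69, 462.0 and 684.4 TPM in heterozygous pools and of 3.17, 33.3 and 9.95 TPM in wild-type pools. The gene STAR held most of the interrenal sum in heterozygous pools 2 and 3, at 374.8 and 560.7 TPM. CYP17A1, of the same list, was instead highest in wild-type pool 2, at 20.9 TPM. Of 3 tested muscle markers limma called 1 lower, against 0.562% of tested genes. Of 4 tested interrenal markers it called 1 higher, against 0.81% of tested genes. The part of these cell types in the members' values was not tested.

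Other genes of mitosis, in 6 further lists, were mostly lower over all libraries. Of 86 tested genes 75 were negative, against 51.9% of tested genes, with a median of -0.42. At an unadjusted limma p under 0.05, 14 were lower, against 7.88% of tested genes, and limma called 0 after adjustment. Against wild-type pool 1 alone 44 of 86 were negative, which is 51.2%, against 34.4% of tested genes, and the median was -0.0046, against 0.15 for all tested genes. Subunits and regulators of the anaphase-promoting complex, UBE2S among them, had a median of -0.56 over all libraries and 0.36 against pool 1. Of these 14 genes 4 were negative against pool 1, against 34.4% of tested genes, with UBE2S at -0.48. Condensin subunits, which compact chromosomes, had medians of -0.21 and 0.065. Other kinetochore genes had medians of -0.47 and 0.016. The remaining lists stayed negative in both comparisons. Their medians were -0.32 and -0.22 for G2/M transcription factors and -0.61 and -0.022 for G2/M entry inhibitors and other regulators. Other spindle and cytokinesis genes had medians of -0.51 and -0.16. No test compared these lists with the members.

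The genes with the smallest p in each of these lists included several close partners of the members. tacc3, which builds spindle microtubules with Aurora A, stood at 11.1, 18.2 and 13.02 TPM in heterozygous pools and at 27.4, 52.8 and 32.2 TPM in wild-type pools (log2 fold change -1.32, limma adjusted p = 0.14; -0.94 against pool 1). FOXM1, the transcription factor of the G2 programme, stood at 2.55, 3.92 and 3.34 TPM in heterozygous pools and at 6.49, 7.84 and 4.74 TPM in wild-type pools. Its genotypes did not overlap, and its difference was similar against pool 1 alone (log2 fold change -0.77, limma adjusted p = 0.24; -0.82 against pool 1). The other factors of that programme were looked up after their values were seen. MYBL2, for B-MYB, was at -0.32 over all libraries, with overlap, and at 0.049 against pool 1. LIN54 was at -0.37, without overlap, and at -0.46 against pool 1. LIN9, of the same list, was at -0.54, with overlap, and at -0.012 against pool 1. cdca3, which triggers the destruction of the Cdk1 inhibitor Wee1, stood at 26.2, 29.8 and 23.5 TPM in heterozygous pools and at 44.5, 140.6 and 62.5 TPM in wild-type pools. NEK2, a centrosome kinase, stood at 2.60, 3.82 and 2.77 TPM in heterozygous pools and at 5.36, 49.1 and 19.0 TPM in wild-type pools. Both were highest in wild-type pool 2, with no overlap between genotypes. Among the smallest p of their lists, NCAPG, SMC4, ska3, cenpt, UBE2S, ANAPC7 and the kinase gene CIT (ENSDARG00000089856) were negative and E2F1 positive, at log2 fold changes from -0.98 to 0.44.

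Genes of DNA replication, the preceding stage of the cell cycle, had a median near that of all tested genes against wild-type pool 1. Of 30 tested, 9 were negative against pool 1 alone, against 34.4% of tested genes, with a median of 0.24, against 0.15 for all tested genes. Over all libraries 21 were negative, against 51.9% of tested genes, with a median of -0.35. PCNA, the sliding clamp of DNA polymerase, was named after its values were seen. It stood at 421.5, 440.9 and 359.5 TPM in heterozygous pools and at 261.7, 460.4 and 316.5 TPM in wild-type pools. Its genotypes overlapped, but every heterozygous pool lay above wild-type pool 1 (log2 fold change 0.27, and 0.63 against pool 1). RRM2 (ENSDARG00000020711), a small subunit of ribonucleotide reductase, was the 1 gene of the list that limma called. It stood at 1.98, 2.52 and 0.429 TPM in heterozygous pools and at 70.8, 424.8 and 112.0 TPM in wild-type pools (log2 fold change -5.94, limma adjusted p = 0.013; -4.86 against pool 1). The other gene named RRM2 (ENSDARG00000078069) was positive in both comparisons. It stood at 191.4, 217.2 and 165.1 TPM in heterozygous pools and at 62.7, 394.6 and 129.3 TPM in wild-type pools. MCM6 (ENSDARG00000033231), a copy of a replicative helicase subunit, stood at 1.096, 1.04 and 0.217 TPM in heterozygous pools and at 1.84, 93.7 and 38.5 TPM in wild-type pools. The other copy, MCM6 (ENSDARG00000057683), stood at 38.4, 29.1 and 24.5 TPM in heterozygous pools and at 31.4, 14.4 and 20.4 TPM in wild-type pools. Its genotypes overlapped (log2 fold change 0.50, limma adjusted p = 0.50). Reads shared between copies are uncertain for RRM2 and MCM6 too.

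**Figure D5:**
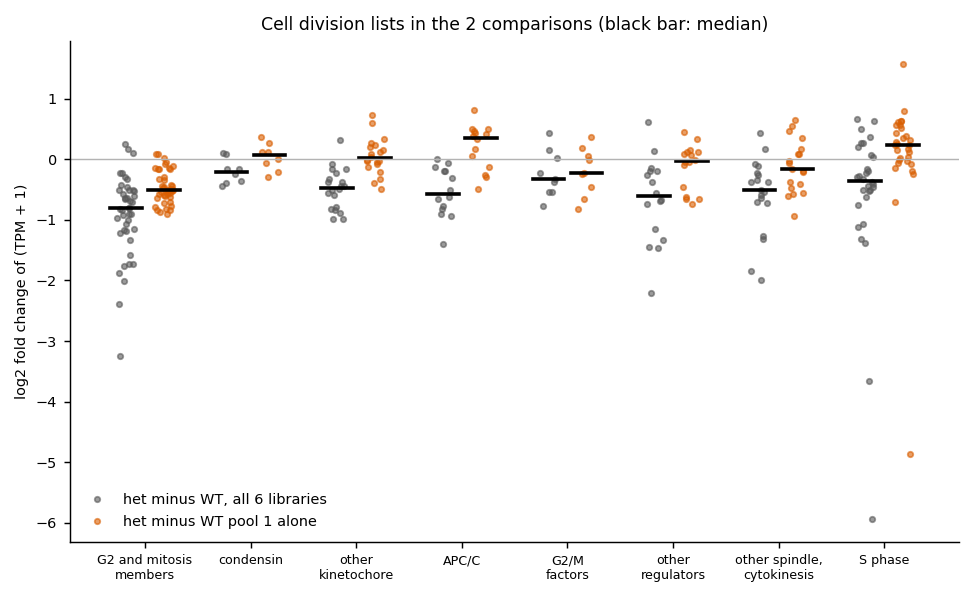
Log2 fold change of (TPM + 1) of the genes in each cell division list, over all 6 libraries (gray) and against WT pool 1 alone (orange), with medians as black bars. The members' medians are -0.81 and -0.50, whereas those of the S phase list are -0.35 and 0.24 and those of the APC/C list, for the anaphase-promoting complex, -0.56 and 0.36. Medians of the G2/M factors, the other regulators and the other spindle and cytokinesis genes are negative in both comparisons.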

How the data were processed

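RNA of whole kidney marrow was sequenced in 6 libraries, 3 per genotype. The authors deposited TPM in 1 table, each library summing to 1000000, and HISAT2 2.0.4, FastQC, featureCounts and build GRCz11 are listed, per the submitters' processing notes. The sources used here do not give the annotation, gene lengths or strand setting, so overlapping or antisense genes may share reads, and depth is unknown.

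Symbols came from a gene name table, which names 28988 of the 32057 rows. limma 3.58.1 in R 4.3.3 was fitted to log2(TPM + 1), with genotype as the only term and a variance trend, over the 16537 genes that reached a TPM of 1 in 3 or more libraries. Tests were two-sided with Benjamini-Hochberg adjustment over all tested genes and a threshold of 0.05. They were tried on simulated data with normal errors, in which each gene had the same spread in every library. No pool rich in egg RNA was simulated, so that trial cannot show how the tests behave with such pools. All 43 members passed the filter.

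The members and lists were chosen with earlier results of these data known. Full values were given for the member of highest mean level and the 2 others of smallest p in each role, and for members against the median, and of other lists for up to 2 genes of smallest p. CCNB2, CDK1, CCNA2 and espl1 were added after their values were seen. No promoter or protein sequences were used here, so the planned motif search was not run. Alternatives changed the pseudocount, filter, scaling, variance model, replicate block, member matching and libraries used. The fit that also leaves out heterozygous pool 3 was chosen after seeing the data.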

Additional observations from a re-analysis of the deposited data

How the results depend on the processing

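The median of the members stayed negative under all 19 alternatives run, between -0.97 and -0.46, and between 37 and 41 members were negative. The number of members called was 0 under each of them except without wild-type pool 1. The number of genes called, 227, moved to 132 with no filter, 117 with a TPM of at least 5 in 3 libraries, 53 against wild-type pool 1 alone and 0 with heterozygous pool 3 also left out (1389 at an unadjusted limma p under 0.05). Leaving out 1 library at a time gave 90 to 1088 called genes and 0 to 9 called members. The replicate block gave 25 called genes and 0 members. Deviations of same-numbered pools from their genotype means correlated at -0.27, 0.12 and -0.13, and those of other pairs from -0.33 to 0.37. With 3 pools per genotype these deviations constrain one another, so they cannot settle whether replicate numbers pair the pools. Of 772 values of single members under 18 alternatives, 17 turned sign, and 9 newly passed the threshold, all without wild-type pool 1. Turned values were, against wild-type pool 1 alone and then without heterozygous pool 3 too, 0.082 and 0.10 for MAD2L1, 0.015 and 0.040 for nuf2, 0.095 and 0.12 for SPC25, -0.16 and -0.049 for PRC1 (ENSDARG00000005993), -0.51 and -0.47 for CENPF and -0.14 and -0.030 for mki67. In the second of these fits alone, ndc80, pttg1 and spc24 turned to 0.053, 0.018 and 0.030. With 1 library left out, CENPF ran from -0.11 without wild-type pool 2 to 0.52 without wild-type pool 1, and mki67 from -0.078 without heterozygous pool 2 to 0.23 without wild-type pool 1. The cause was not tested. rad21a stayed on the same side of the threshold throughout. Depth is unknown, so no counting limit can be given.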
